A study of Mus musculus with 36 samples.

Results

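The cell cycle and DNA replication genes described here are a list of 47 symbols, 15 of them genes of S phase, when DNA is copied, and 32 of them genes of mitosis and the steps that lead to it. The members were taken by symbol from the platform annotation. Each was read from its brightest probe set that names it alone, and 46 of the 47 were measured among 19938 genes in all; Ccnb1, the gene of cyclin B1, had no such probe set. Of the 46, 38 reached the level above which genes were tested (14953 genes in all), 13 of the 15 S-phase members and 25 mitotic members. The 8 dim members were Ttk, Cenpe, Nuf2, Spc25, Kif4, Hmmr, Cdc6 and Gins1, and their values come from the same fit with no filter.

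Most cells of an adult lung rest outside the cell cycle. A cell that enters it loads the MCM helicase onto its replication origins, makes deoxynucleotides and copies its DNA, and then switches on cyclin B, its kinase Cdk1 and the machinery that condenses, aligns and separates the chromosomes. S-phase genes are switched on through E2F sites in their promoters. Mitotic genes come later in the cycle and are controlled through a short element called the CHR (cell cycle genes homology region), often with CCAAT boxes nearby. In tissue RNA these genes serve as a readout of how many cells are cycling, although fewer cells of a type and less RNA per cell cannot be told apart in whole lung.

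Whole-lung RNA was hybridised to Affymetrix Mouse Gene 1.0 ST arrays. The mice were A/J, a strain prone to lung tumours after carcinogens, and C3H, a more resistant strain. They were untreated, with lungs taken at weeks 0, 3, 6, 9 and 12, or had received 4 weekly injections of 100 mg/kg NNK, a DNA-alkylating nitrosamine of tobacco, with lungs taken 3, 6, 9 and 12 weeks after exposure, before mature tumours. Each of the 18 groups had 2 arrays, 36 in all. The labels used here give no ages and do not say that paired arrays hold different mice, nor from which dose the weeks count. The p-values therefore cover array-to-array spread that may be technical.

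Levels are log2(intensity + 16) after quantile normalization, and a change is a difference of such levels, which understates changes of dim genes. A gene rose or fell where limma gave a Benjamini-Hochberg adjusted p under 0.05 over all 14953 genes. The NNK change of a strain averages the differences, NNK minus untreated, of weeks 3, 6, 9 and 12. All comparisons share 1 fit with 18 residual degrees of freedom. The NNK comparisons of all weeks of a strain, the week trends and the strain difference share untreated arrays.

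On 1 array the members stood apart. In array 1 of the NNK-treated A/J lungs of week 6, the mean of the 31 mitotic members was 9.07, against 8.03 in the other array of that group and 7.58 to 8.57 in all other arrays. Its S-phase mean was 9.37, against 8.84 in its partner and 8.56 to 9.05 elsewhere. All 46 members were higher in this array than in its partner, and 42 of the 46 had their highest level of the series there. The same array had the highest mean of the neutrophil markers (9.97, against 7.84 to 8.90 elsewhere) and of the erythroid markers (9.45, against 8.20 to 8.90), and the lowest of the B-cell markers (8.54, against 8.80 to 9.95). The neutrophil genes S100a8 and S100a9 stood at 9.77 and 10.66 there, the red-cell gene Slc4a1 at 11.09 and the B-cell gene Pax5 at 7.98. The part of these cells in the members' levels was not tested, and the members' changes in A/J are given with and without this array. Both untreated A/J arrays of week 6, the controls of that week, also stood apart: the mean of the skin keratin and cornified-envelope markers was 11.05 and 11.35 there and 9.51 in array 2 of week 0, against 7.92 to 8.35 in all other arrays. The highest cardiac muscle mean of the series, 12.17, was in array 1 of those untreated lungs of week 6.

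**Figure D1:**
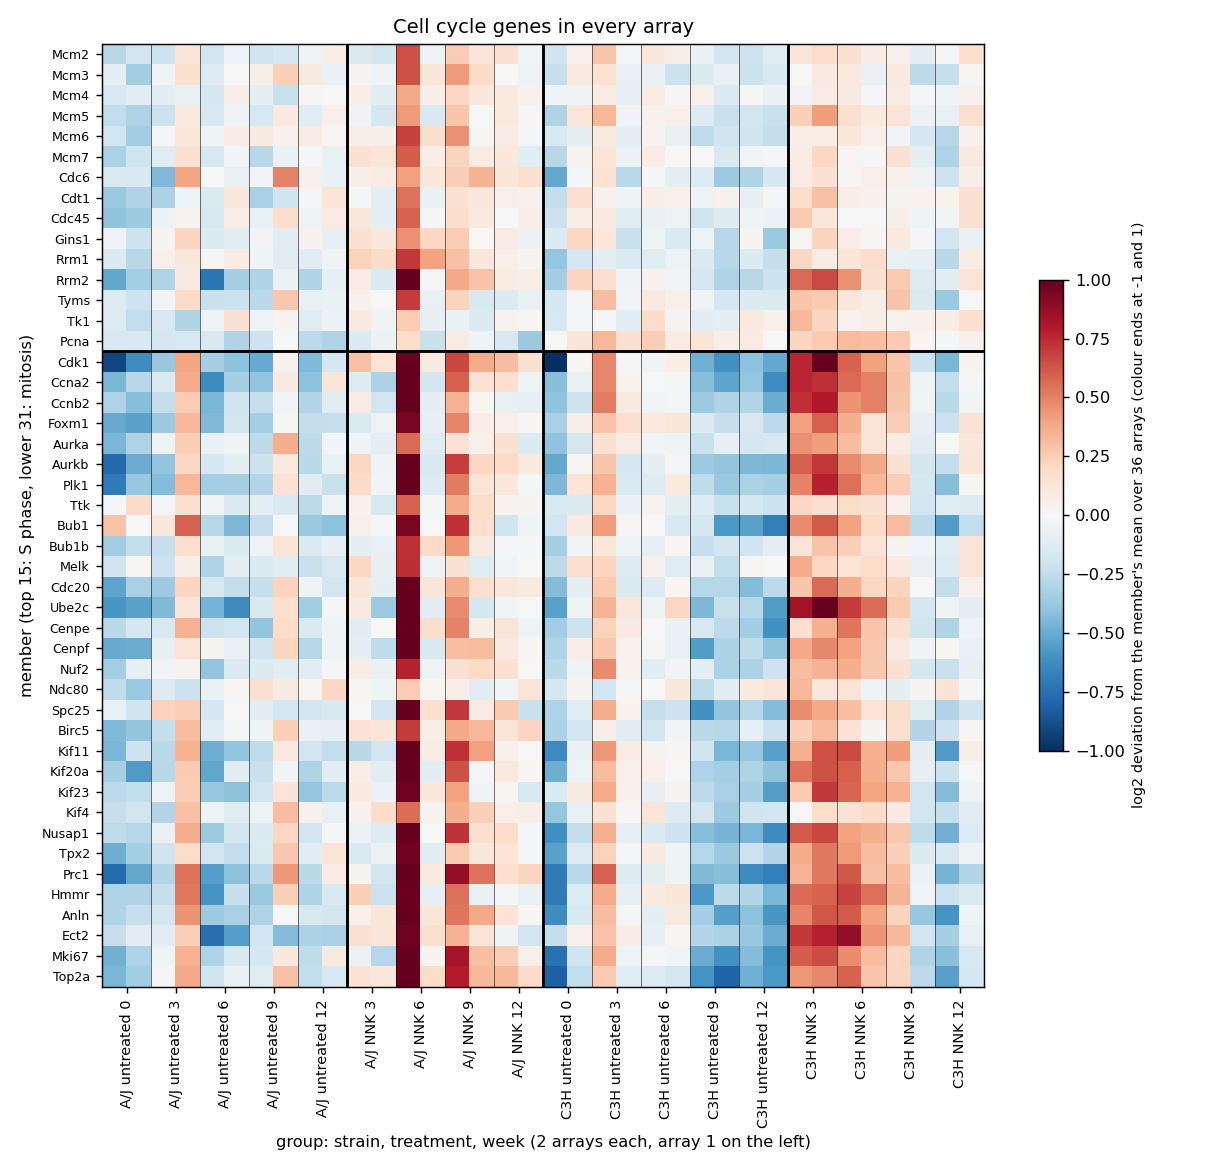
Level of each of the 46 measured members (rows, 15 S-phase members above the line and 31 mitotic members below) on each of the 36 arrays (columns, 2 per group), as the log2 deviation from the member's own mean. The left array of NNK-treated A/J lungs of week 6 is the darkest red column, and the NNK-treated C3H lungs of weeks 3 and 6 are mostly red on all 4 arrays.

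Outside that array the members still moved together. In 16 of the 18 groups, among them the group of that array, the array with the higher mitotic mean also had the higher S-phase mean. In untreated A/J lungs of week 3, 44 of the 46 members were higher in array 2 (mitotic mean 8.30 against 7.84). In untreated C3H lungs of week 0, all 46 were higher in array 2 (7.96 against 7.58). The median residual SD of the tested members was 0.279 in A/J and 0.165 in C3H, against 0.106 and 0.08 over all genes tested. With the NNK-treated A/J group of week 6 left out, it was 0.171 over the members in A/J, close to C3H. Over all genes it was then 0.105 in A/J, still above the 0.08 of C3H. The members thus had more spread between the arrays of a group than the median gene in both strains, with or without that group.

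The members' promoters were searched for the elements named above. A part of these elements in the members' shared movement across arrays was not tested. RefSeq promoters (GRCm38.p6, 250 bases before to 50 after each gene's start) were at hand for 27 of the 32 mitotic and 13 of the 15 S-phase members, 1 window per gene. They were searched on both strands for the CHR spelled TTTGAA, for CCAAT and for 2 spellings of the E2F site, TTCCCGC or otherwise TTGGCGC. Read on the other strand, the CCAAT box is spelled ATTGG and so can share bases with the latter spelling. A CHR was found in 20 of the 27 mitotic windows (74.1%), in 2 of the 13 S-phase windows (15.4%) and in 18.1% of all 27025 genes' windows. An E2F site was found in 7 of the 13 S-phase windows (53.8%), 4 of the 27 mitotic ones (14.8%) and 6.93% of all. CCAAT stood in 21 of the 27 mitotic windows (77.8%), in 9 of the 13 S-phase windows (69.2%) and in 37.9% of all. A CHR and a CCAAT box stood together in 18 of the 27 (66.7%), against 7.12% of all windows. A match is a description of letters and does not show that a factor binds.

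The 150 bases before the start of 5 members that rose after NNK in A/J are printed 5′ to 3′ on the gene's strand, with matches in capitals. They lie at chr10:69352913-69353062 (Cdk1, minus strand), chr11:99024190-99024339 (Top2a, minus), chr3:27153879-27154028 (Ect2, minus), chr7:102441545-102441694 (Rrm1, plus) and chr12:24708104-24708253 (Rrm2, plus) of GRCm38.p6.
Cdk1: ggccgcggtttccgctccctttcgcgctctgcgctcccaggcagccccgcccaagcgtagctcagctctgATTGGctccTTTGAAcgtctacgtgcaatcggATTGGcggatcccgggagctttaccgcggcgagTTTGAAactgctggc
Top2a: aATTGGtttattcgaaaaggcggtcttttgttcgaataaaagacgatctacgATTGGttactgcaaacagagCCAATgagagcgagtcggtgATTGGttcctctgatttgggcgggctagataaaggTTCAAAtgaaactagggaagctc
Ect2: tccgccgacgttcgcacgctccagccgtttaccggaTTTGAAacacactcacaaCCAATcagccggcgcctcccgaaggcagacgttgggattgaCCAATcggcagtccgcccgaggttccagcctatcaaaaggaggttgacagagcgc
Rrm1: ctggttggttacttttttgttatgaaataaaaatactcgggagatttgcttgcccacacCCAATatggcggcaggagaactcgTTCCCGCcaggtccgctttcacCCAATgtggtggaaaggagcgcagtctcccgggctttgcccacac
Rrm2: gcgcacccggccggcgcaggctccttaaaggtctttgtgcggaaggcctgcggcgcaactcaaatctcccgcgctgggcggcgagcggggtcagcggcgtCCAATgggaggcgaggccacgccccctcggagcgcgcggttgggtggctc
In the mitotic genes Cdk1, Top2a and Ect2 a CHR begins 15 and 71, 23, and 114 bases before the start, each with CCAAT boxes within the printed piece. Their windows also hold matches outside the printed piece, besides further CCAAT boxes. An E2F site begins 178 bases before the start of Cdk1 and 2 bases before that of Ect2. Another CHR begins 179 bases before the start of Top2a, and another lies after the start of Ect2. The ribonucleotide reductase genes Rrm1 and Rrm2 have no CHR in their windows; Rrm1 has an E2F site 67 bases before its start between 2 CCAAT boxes, and Rrm2 has 1 CCAAT box. Among the tested mitotic members with a window, the NNK change had a median of 0.37 in A/J and 0.36 in C3H over the 16 with a CHR. It was 0.30 and 0.26 over the 4 without. The changes of those 4, 0.25 to 0.34 in A/J and 0.15 to 0.44 in C3H, lay within the range of the 16 in each strain. The difference was not tested. Aurkb, Ccna2, Foxm1, Kif20a and Tpx2 had no window and are not in these medians.

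In A/J lungs, 9 of the 38 tested members rose after NNK and 0 fell. The mitotic members that rose were the kinase gene Cdk1, the cytokinesis genes Ect2 and Anln, the topoisomerase gene Top2a and the survivin gene Birc5. The S-phase members that rose were Rrm1 and Rrm2, both subunits of ribonucleotide reductase, and the helicase genes Mcm4 and Mcm7. Of all genes tested 10.0% were called in this comparison, 7.44% upward. All 38 tested members, and all 46 measured, had a positive NNK change, with a median of 0.28 over the 38 against 0.01 over all genes. The median was 0.35 over the 25 mitotic members, of which 5 rose, and 0.15 over the 13 S-phase members, of which 4 rose. The median over the 38 was 0.17 without array 1 of the NNK-treated lungs of week 6 and 0.40 without array 2 of that group. Without array 1, Anln had a change of 0.32 (adjusted p = 0.0744), Top2a of 0.30 (0.087), Mcm4 of 0.14 (0.0596), Birc5 of 0.18 (0.146) and Mcm7 of 0.16 (0.146), and none of these 5 passed. Cdk1, Ect2, Rrm1 and Rrm2 were called in each of the 36 fits made with 1 array fewer. With all arrays of week 6 left out, 0 members passed: Ect2 then had a change of 0.28 (adjusted p = 0.0854), Rrm1 of 0.17 (adjusted p = 0.0981) and Cdk1 of 0.50 (adjusted p = 0.11), and 36 of 38 members were positive.

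**Figure D2:**
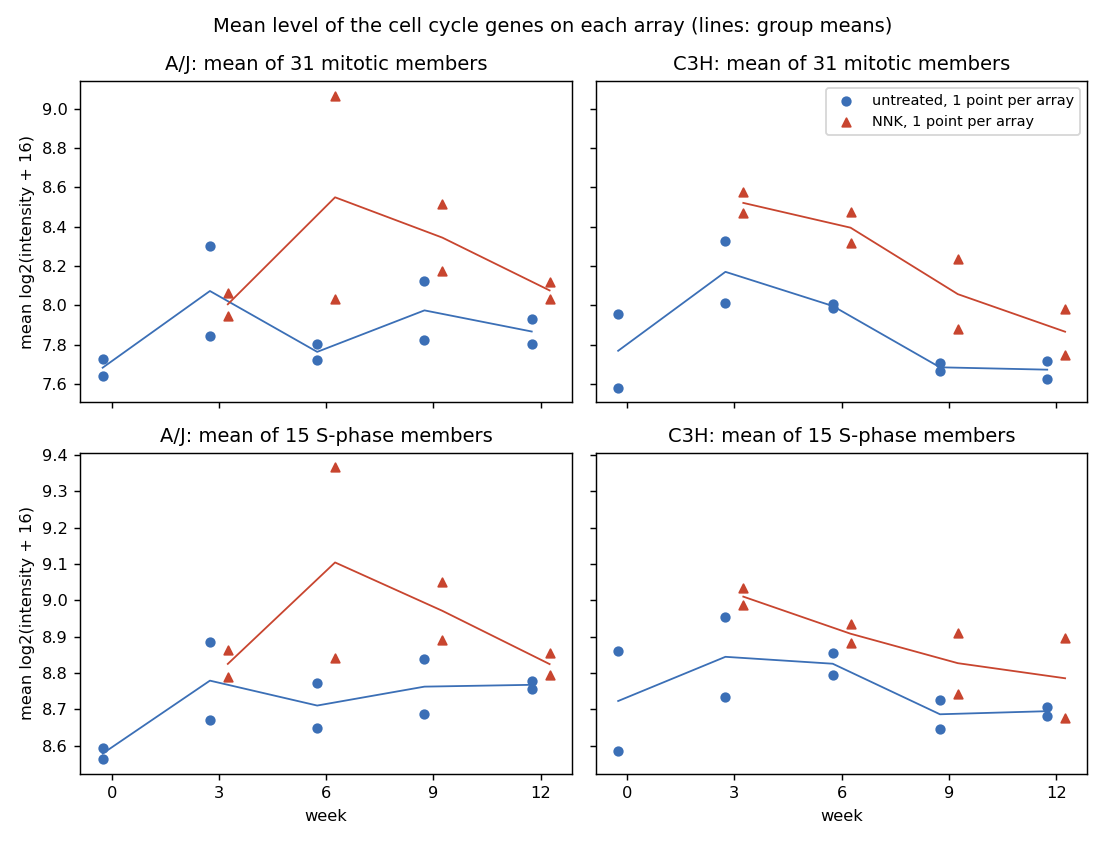
Mean log2(intensity + 16) of the 31 mitotic (top) and 15 S-phase members (bottom) on each array against the week, for A/J (left) and C3H (right); circles are untreated and triangles NNK-treated arrays, and lines join group means. The triangle at 9.07 in A/J at week 6 is the array that stands apart; in the mitotic C3H panel both triangles lie above both circles of their week at each of the 4 weeks.

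Cdk1 is the kinase that drives entry into mitosis. In NNK-treated A/J lungs its level was 8.45 and 8.29 at week 3, 9.57 and 8.24 at week 6, 8.82 and 8.52 at week 9, and 8.46 and 8.30 at week 12. In untreated A/J lungs it was 7.24 and 7.53 at week 0, 7.77 and 8.55 at week 3, 7.82 and 7.74 at week 6, 7.64 and 8.20 at week 9, and 7.71 and 7.98 at week 12. Both NNK arrays lay above both untreated arrays at weeks 6, 9 and 12, and at week 3 an untreated array was the highest. Cdk1 rose by 0.65 ± 0.17 (SE), which is 1.57-fold (adjusted p = 0.0145), and by 0.49 without the array that stands apart. The untreated mean over weeks 3 to 12 was 7.92 ± 0.31 and the NNK mean 8.58 ± 0.44 (SD over 8 arrays).

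Ect2 activates the GTPase RhoA at the site where a dividing cell pinches apart. Its level after NNK in A/J was 8.71 and 8.68 at week 3, 9.53 and 8.72 at week 6, 8.90 and 8.69 at week 9, and 8.51 and 8.37 at week 12. The untreated levels were 8.33 and 8.44, 8.44 and 8.79, 7.80 and 8.01, 8.37 and 8.12, and 8.24 and 8.23 at weeks 0, 3, 6, 9 and 12. At week 6 the gap came from both sides, since the untreated arrays of that week were the lowest of the strain. Ect2 rose by 0.51 ± 0.10 (SE), from 8.25 ± 0.30 to 8.76 ± 0.35 (SD, n = 8 each, adjusted p = 0.00185), the smallest p of the members here.

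Anln encodes anillin, a scaffold of the contractile ring. After NNK in A/J it stood at 8.36 and 8.44 at week 3, 9.59 and 8.43 at week 6, 8.85 and 8.69 at week 9, and 8.45 and 8.33 at week 12. Untreated arrays ranged from 7.95 to 8.76 over weeks 3 to 12 with a median of 8.13. The highest untreated array, of week 3, lay above all but 2 of the treated arrays. Anln rose by 0.46 ± 0.13 (SE, adjusted p = 0.0274). With 1 array fewer it missed the threshold in 8 of 36 fits.

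Rrm1 encodes the large subunit of ribonucleotide reductase, which makes deoxynucleotides. Its NNK levels in A/J were 9.95 and 9.91, 10.43 and 10.12, 10.01 and 9.84, and 9.77 and 9.75 at weeks 3, 6, 9 and 12. Its untreated levels were 9.58 and 9.45 at week 0, 9.77 and 9.83, 9.70 and 9.79, 9.68 and 9.60, and 9.61 and 9.68. Rrm1 was the member whose NNK arrays both lay above both untreated arrays in all 4 weeks in A/J, 1 of 38 tested members, against 1.67% of all genes tested. It rose by 0.26 ± 0.05 (SE, adjusted p = 0.00192), and by 0.23 without the array that stands apart.

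Rrm2, the small subunit, is made in S phase. It stood at 8.48 and 8.25, 9.48 and 8.38, 8.77 and 8.68, and 8.46 and 8.46 after NNK in A/J. Untreated it stood at 7.87 and 8.05 at week 0 and then at 8.08 and 8.48, 7.66 and 8.06, 8.09 and 8.33, and 8.09 and 8.31. Its pairs did not overlap at weeks 6, 9 and 12. Rrm2 rose by 0.48 ± 0.12 (SE, adjusted p = 0.0125).

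Mcm4 and Mcm7 encode subunits of the MCM helicase that unwinds DNA at the fork. Mcm4 stood at 9.72 and 9.55, 10.03 and 9.71, 9.86 and 9.76, and 9.74 and 9.70 after NNK in A/J, and at 9.50 and 9.54, 9.54 and 9.58, 9.49 and 9.72, 9.56 and 9.43, and 9.66 and 9.65 untreated. It rose by 0.18 ± 0.05 (SE, adjusted p = 0.0184), a small change with pairs that did not overlap at weeks 9 and 12. Mcm7 rose by 0.23 ± 0.07 (adjusted p = 0.0481), missing the threshold in 25 of the 36 fits with 1 array fewer. The other tested genes of licensing and the helicase, Mcm2, Mcm3, Mcm5, Mcm6, Cdt1 and Cdc45, had positive changes of 0.11 to 0.19 and none passed. Pcna, the sliding clamp of the polymerases, had a change of 0.10 ± 0.05 (adjusted p = 0.211), and Tk1 and Tyms, which make thymidine nucleotides, had 0.07 and 0.12. A dimmer probe set of Tk1, with a mean level of 8.17, had NNK changes of 0.175 in A/J and 0.139 in C3H.

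Of the other mitotic members, Top2a, which untangles DNA before chromosomes separate, rose by 0.47 ± 0.14 (SE, adjusted p = 0.0356) and missed the threshold in 11 of those fits. A dimmer probe set of Top2a, with a mean level of 6.74, had NNK changes of 0.13 in A/J and -0.02 in C3H. Birc5, of the chromosomal passenger complex, rose by 0.26 ± 0.08 (adjusted p = 0.0481) and missed it in 31. None of the tested Aurora, Polo and checkpoint kinases or Melk passed: Aurkb, Plk1, Bub1, Melk, Bub1b and Aurka had changes from 0.41 down to 0.08, with Aurkb (adjusted p = 0.0604) the nearest. Prc1, a spindle midzone protein, had the second largest change, 0.54 ± 0.18 (adjusted p = 0.0552), and the kinesins Kif11, Kif20a and Kif23 had 0.42, 0.36 and 0.33. The proliferation marker Mki67 had 0.37 ± 0.15 (adjusted p = 0.105). Ndc80, of the kinetochore, had the smallest change of all, 0.03 ± 0.05. The 8 dim members had changes of 0.15 (Cdc6) to 0.30 (Hmmr).

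**Figure D3:**
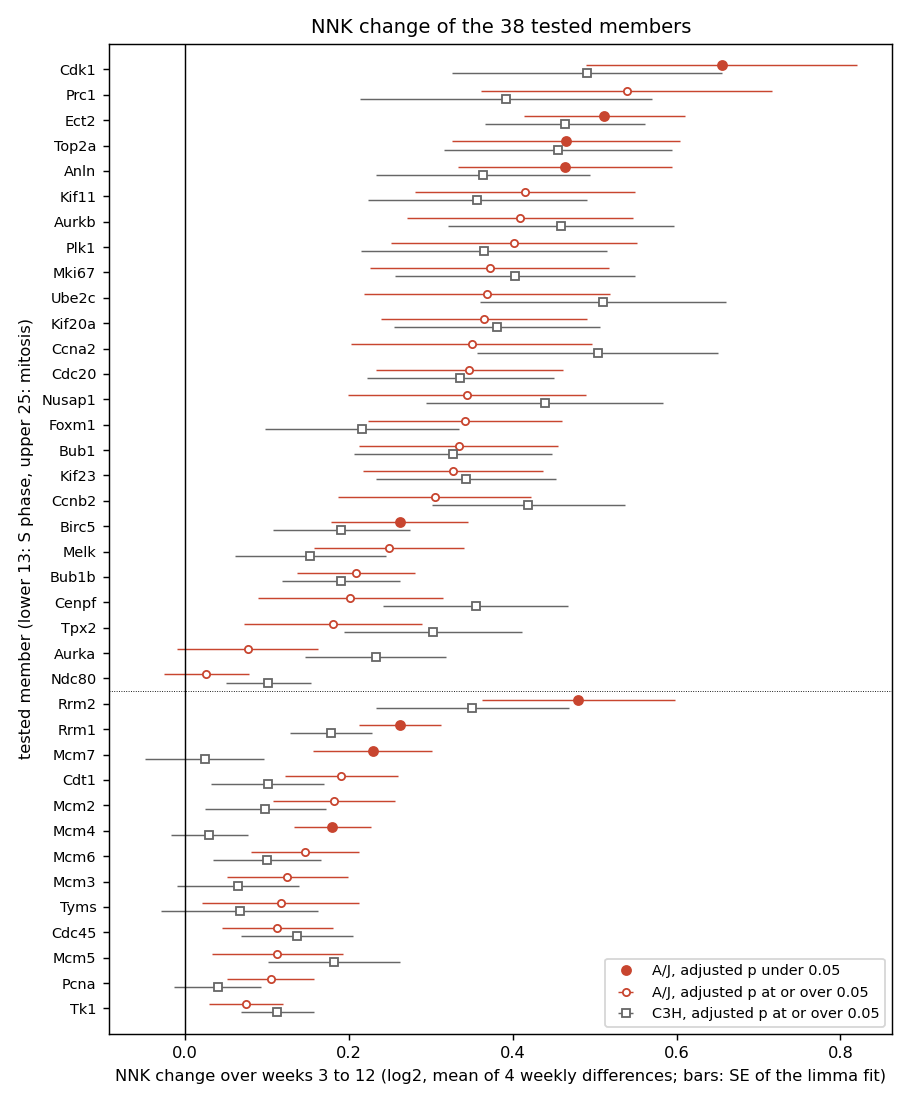
NNK change over weeks 3 to 12 of each of the 38 tested members (log2, horizontal axis) in A/J (circles) and C3H (squares), with the SE of the fit as bars; filled symbols have an adjusted p under 0.05. The points of both strains lie right of 0 for all 38 members, and the 9 filled ones are A/J.

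In C3H lungs 0 members passed, with changes of a size like those in A/J. The median NNK change was 0.32 over the 38 tested members, against -0.01 over all genes, and all 38 were positive. It was 0.36 over the 25 mitotic and 0.10 over the 13 S-phase members. Limma called 0 of 38 members, and 0.0803% of all genes tested; 26 members had an unadjusted p under 0.05, 22 of them mitotic. The smallest adjusted p was that of Ect2 (0.0798), with a change of 0.46 ± 0.10 (SE).

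In C3H the weekly pairs often did not overlap. In 12 of the 38 tested members both NNK arrays lay above both untreated arrays in all 4 weeks, against 0.375% of all genes tested. They were Ccna2, Ccnb2, Aurkb, Cdc20, Ube2c, Cenpf, Kif20a, Tpx2, Ect2, Mki67, Cdc45 and Rrm2, 10 mitotic and 2 of S phase. The difference between the strains in this count was not tested. In the shared fit without the A/J array that stands apart, 4 members passed in C3H, Ccna2, Ccnb2, Cenpf and Ect2 (0.201% of all genes). Fitted on the 18 C3H arrays alone, with 9 residual degrees of freedom, 8 members passed, against 0.274% of all genes: Ccna2, Ccnb2, Aurka, Aurkb, Ube2c, Cenpf, Kif20a and Ect2. Fitted on the 18 A/J arrays alone, 2 members passed, Ect2 and Rrm1, against 3.23% of all genes.

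Ccnb2 encodes a mitotic cyclin. In C3H it stood at 10.13 and 10.21 at week 3 after NNK, 9.85 and 9.91 at week 6, 9.68 and 9.38 at week 9, and 9.13 and 9.38 at week 12. Untreated it stood at 9.00 and 9.20, 9.91 and 9.49, 9.38 and 9.38, 9.04 and 9.10, and 9.11 and 8.91 at weeks 0, 3, 6, 9 and 12. Treated and untreated arrays both declined from week 3 on, and the treated pair stayed above the untreated pair of its week throughout. The change was 0.42 ± 0.12 (SE, adjusted p = 0.422), and 0.42 ± 0.07 (adjusted p = 0.0175) on the C3H arrays alone.

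Ube2c is the ubiquitin-conjugating enzyme of the anaphase-promoting complex, which ends mitosis. In C3H it stood at 10.00 and 10.31, 9.87 and 9.73, 9.43 and 9.00, and 9.13 and 9.07 after NNK, and at 8.63 and 9.13, 9.51 and 9.28, 9.12 and 9.37, 8.72 and 8.94, and 8.89 and 8.61 untreated. The treated pair was highest at week 3, and no treated array overlapped the untreated ones of its week. Its change of 0.51 ± 0.15 (SE) was the largest of the tested members in C3H (adjusted p = 0.438), and in A/J it was 0.37 ± 0.15. On the C3H arrays alone the adjusted p was 0.0296.

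Aurkb, the kinase of the passenger complex, stood at 9.21 and 9.32, 9.09 and 8.99, 8.77 and 8.43, and 8.36 and 8.74 after NNK in C3H, and at 8.10 and 8.63, 8.89 and 8.44, 8.52 and 8.59, 8.25 and 8.22, and 8.17 and 8.15 untreated. Kif23, a motor of the central spindle, stood at 8.64 and 9.08, 8.96 and 8.77, 8.72 and 8.18, and 7.94 and 8.34 after NNK, and at 8.23 and 8.46, 8.74 and 8.41, 8.29 and 8.40, 8.11 and 8.05, and 8.04 and 7.83 untreated. Mki67, the antigen by which cycling cells are commonly counted, stood at 9.63 and 9.67, 9.49 and 9.33, 9.24 and 8.72, and 8.60 and 8.86, against 8.28 and 8.82, 9.39 and 8.98, 9.01 and 8.99, 8.53 and 8.41, and 8.59 and 8.43. In Aurkb and Mki67 the weekly pairs never overlapped, while Kif23 pairs overlapped at weeks 3 and 12. The same 3 genes in NNK-treated A/J lungs of week 6 stood at 9.76, 9.35 and 10.50 in array 1 and at 8.46, 8.48 and 9.05 in array 2.

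The S-phase members of C3H had smaller differences. Rrm1 had a change of 0.18 ± 0.05 (SE) and Rrm2 of 0.35 ± 0.12. The helicase genes that rose in A/J, Mcm4 and Mcm7, had changes of 0.03 ± 0.05 and 0.02 ± 0.07 in C3H, with treated and untreated arrays of Mcm4 between 9.51 and 9.74 throughout.

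No tested member passed the test of a strain difference in the NNK change. Limma called 0 of 38, against 1.13% of all genes, and the unadjusted p was under 0.05 for 1 member, Mcm4 (A/J minus C3H 0.15 ± 0.07 SE, adjusted p = 0.237). The median difference was 0.03, and -0.08 without the array that stands apart. The next smallest p was that of Mcm7 (0.21 ± 0.10, adjusted p = 0.297). For Cdk1 the difference was 0.16 ± 0.23 and for Ccna2 -0.15 ± 0.21.

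By week, the members' median change in A/J was highest at week 6 with all arrays, and highest at week 9 (0.31) without array 1 of the NNK-treated lungs of week 6 (0.21 at week 6). At week 3 the median was -0.03 and 18 of 38 members were positive; 0 were called and 1 had an unadjusted p under 0.05 (0.354% of all genes called). At week 6 the median was 0.64 and all 38 were positive; 17 rose, 15 mitotic and 2 of S phase (7.27% of all genes called, 4.36% upward). At week 9 the median was 0.31 with 36 positive, 0 called and 11 under an unadjusted 0.05 (1.54% of all genes called). At week 12 it was 0.19 with 33 positive, 0 called and 0 under an unadjusted 0.05 (0.0736% of all genes called). Differences between weeks were not tested.

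The week 6 median depended on the array that stands apart. Its controls were the arrays high in skin markers, of which 5 of 7 were lower after NNK (median -3.57), and the part of skin RNA was not tested. All 7 neutrophil markers and 2 of 3 erythroid markers rose at week 6 (medians 1.36 and 0.82), and 1 and 0 did without array 1 (medians 0.68 and 0.23). The neutrophil mean was 9.97 and 8.86 in the treated arrays of that week, both above the untreated 8.02 and 8.13. The largest changes of that week were those of Prc1 (1.45 ± 0.36 SE, adjusted p = 0.0186), Ect2 (1.22 ± 0.20, adjusted p = 0.00123), Ube2c (1.15 ± 0.30, adjusted p = 0.0252) and Cdk1 (1.13 ± 0.33, adjusted p = 0.0404). Without array 1 of the NNK-treated lungs, the week 6 median was 0.21, 32 of 38 members were positive and Ect2 had a change of 0.81. Without array 2 the median was 1.22. Without array 1 of the untreated lungs of that week it was 0.59, and 37 of 38 members were positive. Prc1 stood at 9.41 and 7.67 after NNK and at 7.02 and 7.16 untreated.

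In untreated A/J lungs of week 3, array 2 had a mitotic mean of 8.30, the highest of the untreated arrays of its strain, and a mesothelial marker mean of 10.94. In C3H the highest mesothelial mean, 11.26, was in array 1 of the NNK-treated lungs of week 3 (mitotic mean 8.47). Leaving out the 3 arrays whose mesothelial or neutrophil mean was over 1 above the median of all arrays, a rule that uses no member and was chosen after the data were seen, 14 members rose after NNK in A/J and 5 in C3H (16% and 0.241% of all genes), 0 differed between the strains, and the A/J week 3 median was 0.15 with 32 of 38 positive. The 5 in C3H were Ccnb2, Aurkb, Ube2c, Cenpf and Ect2. The part of mesothelial or neutrophil RNA in the members' levels was not tested.

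In C3H the weekly medians were close to each other. They were 0.30, 0.32, 0.32 and 0.19 at weeks 3, 6, 9 and 12, and 37, 33, 38 and 33 of the 38 members were positive. Limma called 0 members at each week, with 7, 5, 1 and 0 members under an unadjusted 0.05. Of all genes, 0.0936% were called at week 3, 0.0134% at week 6, 0% at week 9 and 0% at week 12. At week 3 the largest changes were those of Ube2c (0.76) and Cdk1 (0.65), and the mitotic median was 0.36 where in A/J it was -0.05.

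**Figure D4:**
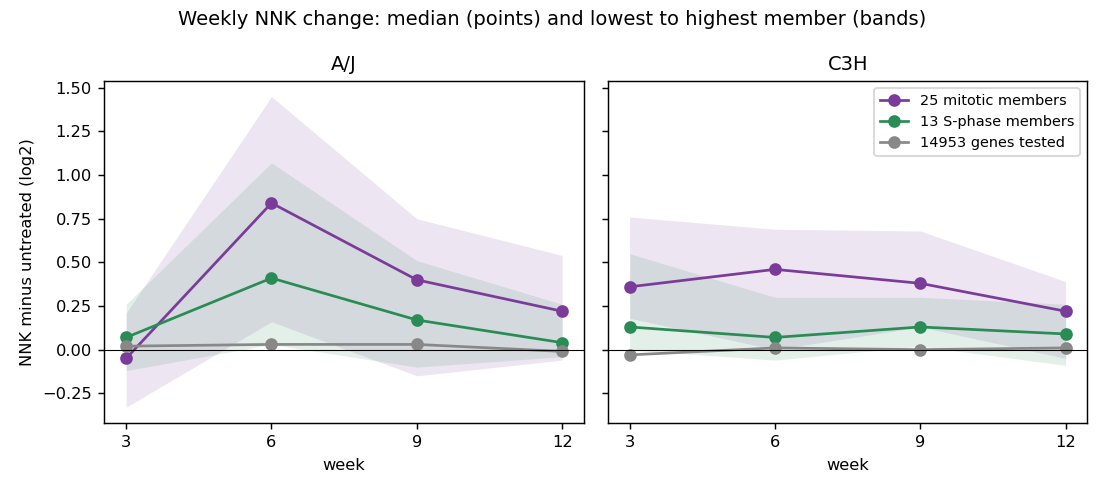
Median NNK change by week (log2, points joined by lines) of the 25 mitotic members, the 13 S-phase members and all 14953 genes tested, with bands from the lowest to the highest member, for A/J (left) and C3H (right). The mitotic median in A/J goes from -0.05 at week 3 to 0.84 at week 6, where 1 array stands apart, and 0.22 at week 12, and in C3H it stays between 0.22 and 0.46.

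Untreated lungs of both strains differed in 2 of the 38 members, against 56.1% of all genes tested. Pcna was lower in A/J, at 11.07 to 11.38 with a median of 11.21 over 10 arrays, than in C3H, at 11.38 to 11.71 with a median of 11.48. The ranges touched at 11.38. The difference was -0.31 ± 0.05 (SE, adjusted p = 1.01e-05), and it passed in each of the 36 fits with 1 array fewer. Rrm1 was higher in A/J by 0.13 ± 0.05 (adjusted p = 0.0213), at 9.45 to 9.83 against 9.33 to 9.67. The median difference over the 38 members was -0.03, and -0.04 over all genes. The median over the members was -0.03 without the array that stands apart and -0.06 without the 3 arrays high in markers.

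Over weeks 0 to 12 of untreated A/J lungs, 3 of the 38 members followed a linear trend, against 22.8% of all genes. Ndc80, of the kinetochore complex that grips microtubules, rose by 0.46 ± 0.09 (SE, per 12 weeks, adjusted p = 0.00182). Its arrays stood at 7.69 and 7.57 at week 0, 7.81 and 7.72 at week 3, 7.88 and 7.96 at week 6, 8.10 and 8.03 at week 9, and 7.96 and 8.15 at week 12. Bub1, a kinase of the spindle checkpoint, fell by 0.61 over 12 weeks (SE 0.22, adjusted p = 0.0449). It went from 8.10 and 7.81 at week 0 and 7.92 and 8.40 at week 3 to 7.53 and 7.37, 7.58 and 7.82, and 7.45 and 7.40. Cdc45, which joins the MCM ring to form the active helicase, rose by 0.34 ± 0.12 (adjusted p = 0.0495), from 7.94 and 7.98 at week 0 to 8.29 and 8.42 at week 12. With 1 array fewer, Bub1 missed the threshold in 17, Cdc45 in 28 and Ndc80 in 0 of 36 fits. The median trend over the 38 members was 0.17 with all arrays and 0.25 without the 3 arrays high in markers.

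In untreated C3H lungs 0 of 38 members were called by limma (0.863% of all genes), with 3 at an unadjusted p under 0.05, Bub1, Kif23 and Ect2. The median trend was -0.22 over the members with 4 of 38 positive, against 0.17 with 32 of 38 positive in A/J. These medians moved with single arrays. In C3H the median was -0.382 without array 1 of week 0 and -0.069 without array 2. In A/J it was 0.089 without array 1 of week 3, 0.248 without array 2 of week 3 and 0.105 without array 2 of week 12. On the deposited scale, without quantile normalization, the A/J median was 0.02. In the main fit, Bub1 had a trend of -0.69 ± 0.22 (SE, adjusted p = 0.144) in untreated C3H lungs, close to its value in A/J. The trends of the strains differed in 0 of 38 members (1.32% of all genes called), with 5 at an unadjusted p under 0.05, and the median difference was 0.39. Without the 3 arrays high in markers the median difference was 0.47.

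**Figure D5:**
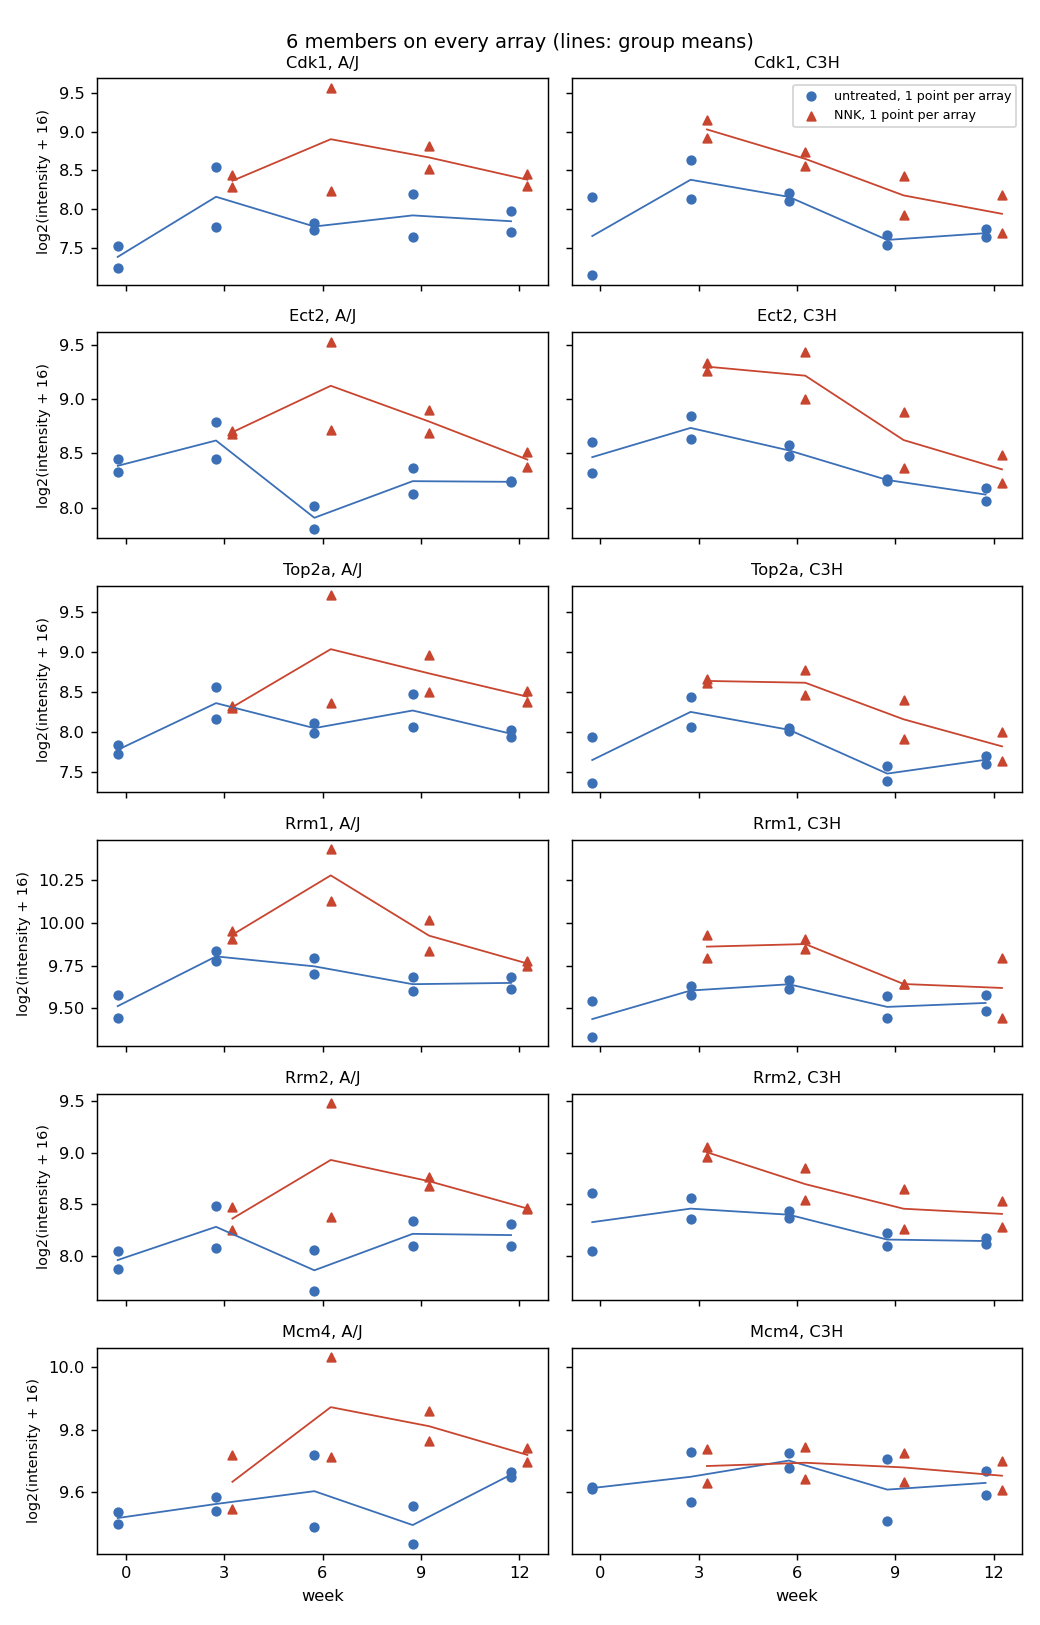
Level of Cdk1, Ect2, Top2a, Rrm1, Rrm2 and Mcm4 (log2(intensity + 16), rows) on each array against the week in A/J (left) and C3H (right); circles are untreated and triangles NNK-treated arrays, and lines join group means. Cdk1 reached 9.57 on 1 A/J array of week 6, and in C3H its treated arrays went from 8.91 and 9.14 at week 3 to 7.70 and 8.18 at week 12.

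Other genes of the cycle were read from lists. Of 28 further mitotic genes tested, 8 rose after NNK in A/J, among them the kinase Nek2 (0.37, adjusted p = 0.000958), Cks2, a small partner of cyclin-dependent kinases (0.39, adjusted p = 0.00222), the checkpoint gene Mad2l1 (0.32, adjusted p = 0.00449) and the microtubule gene Ckap2l (0.43, adjusted p = 0.0125). Of 27 further replication genes, 5 rose: the clamp-loader gene Rfc4 (0.32), Dtl (0.42), which targets licensing factors for destruction, and the polymerase, ligase and primase genes Pole, Lig1 and Prim1 (0.37, 0.21 and 0.26). Of 17 genes of E2F, RB and DREAM, the factors that switch the members on and off, E2f7, Tfdp1 and Lin9 rose (0.26, 0.20 and 0.31). Of all genes tested 10.0% were called in this comparison, 7.44% upward. The medians over the 28, 27 and 17 genes were 0.23, 0.14 and 0.09 with all arrays. Without the array that stands apart they were 0.14, 0.10 and 0.07. In C3H, 0 genes of these 3 lists were called by limma, against 0.0803% of all genes, with 14, 5 and 1 under an unadjusted p of 0.05.

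Of 13 tested cyclins, kinases and inhibitors of G1, the D-type cyclin Ccnd1 rose by 0.34 ± 0.06 (SE, adjusted p = 0.000574) in A/J, and Cdk6 and the inhibitor gene Cdkn1b fell by 0.14 and 0.13; Cdkn1b did not pass without the array that stands apart. In C3H the list of G1 genes had 0 calls and 1 gene under an unadjusted 0.05. The inhibitor gene Cdkn1a, also on that list, had no probe set that names it alone and was not measured. In untreated A/J lungs the inhibitor gene Cdkn2a rose by 0.50 ± 0.07 over 12 weeks (adjusted p = 0.000133), and this trend differed from that in C3H (by 0.51 ± 0.10, adjusted p = 0.0169). In the untreated lungs 9 of 17 E2F, RB and DREAM genes were lower in A/J and 0 higher, a share called near the 56.1% of all genes, E2f8 by -0.39, E2f4 by -0.36 and Lin9 by -0.35. The replication genes Pold3 and Pole2 were lower in A/J by -0.59 and -0.48, and the polymerase gene Pold1 was higher by 0.40.

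The p53 targets, of which several act to halt the cycle, were read beside the members. In A/J 8 of 10 rose after NNK, against 9 of 38 members. Their mean was 10.2 in the array that stands apart and 10.21 in its partner, unlike the members' mean. Their median NNK change in A/J was 0.45 with all arrays and 0.44 without that array, where the members' was 0.28 and 0.17. Psrc1 rose by 0.89 ± 0.07 (SE, adjusted p = 7.56e-09) in A/J and 0.79 ± 0.07 (adjusted p = 3.9e-07) in C3H, and Ccng1 by 0.43 ± 0.04 and 0.24 ± 0.04. Psrc1 rose at week 6 by 1.37 in A/J and 0.94 in C3H. It also rose in both strains at week 3, where the members' median was -0.03 in A/J and 0.30 in C3H. The NNK changes of Phlda3, Sesn2 and Eda2r were larger in A/J than in C3H (by 0.39, 0.41 and 0.32, adjusted p = 0.00358, 0.0228 and 0.0449).

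Marker lists of cell types that divide or arrive in lung were read beside the members. Of all genes tested, 10.0% were called after NNK in A/J and 0.0803% in C3H. Of 7 neutrophil markers 3 rose after NNK in A/J, led by Ltf (1.36), which airway gland cells make too, 2 of 7 without the array that stands apart, and 0 of 7 in C3H. Of 6 mesothelial markers 0 passed in either strain, with all 6 changes positive in C3H (median 0.25) and 2 of 6 in A/J (median -0.12). Of 7 B-cell markers 0 passed in A/J, with all 7 changes negative (median -0.24), and 0 in C3H. All 7 ciliated-cell markers rose in A/J (median 0.32), 6 of 7 without that array, and 0 of 7 in C3H. The T-cell list (6 tested) and the thymocyte list (4 tested) had 0 calls in both strains. Of 8 alveolar type 2 markers, of the cells that secrete surfactant and divide to renew alveoli, 4 rose in A/J, 3 without that array, and 0 in C3H. Of 7 skin markers 5 fell in A/J (median -0.94) and 0 in C3H. The untreated A/J arrays of week 6 were high in skin markers (means 11.05 and 11.35), and the A/J median at week 6 was -3.57. The part of the listed cell types in the members' changes was not tested.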

How the data were processed

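The deposited table holds a linear intensity for every probe set. The submitters' processing notes name PLIER and the Affymetrix Expression Console; the sources used here give no version, setting or build. Arrays give no read depth; their number limits precision. Array medians lay between 285 and 347. Values were turned to log2(intensity + 16) and quantile-normalized. Of 35556 probe sets, 21789 had 1 gene symbol, 1621 several and 12146 none; those with 1 were used, the highest mean per gene. Genes whose mean reached the 25th percentile (14953 of 19938) were tested with limma 3.58.1 (R 4.3.3), 1 mean per group, moderated variances and Benjamini-Hochberg adjustment. The scripts were tested on simulated data.

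Any member could be named; values in every array are given for up to 6 called members per comparison by smallest p and for the highest member of each role, with Top2a and Prc1 added after their values were seen. From other lists, called members with the smallest p are named. The members and lists were chosen with earlier results of these data known. Alternatives were the deposited scale, a pseudocount of 1, no filter, the 50th percentile, array weights, trended robust variances, a replicate block, each strain's own arrays, the mean of all probe sets, no week 6, and each array left out. The labels' array numbers were not taken to pair samples. Residuals of NNK and untreated arrays of the same number, strain and week had correlations of -0.201 to 0.222. These have no set limit and do not settle whether the numbers pair samples.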

Additional observations from a re-analysis of the deposited data

Results flagged for a closer look

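Values far from the others of their strain and treatment were looked for in 60 sets of 8 or 10 arrays, and 9 were found. The sets were those of the mitotic mean, the S-phase mean and the members called in a comparison over several weeks. Array 1 of NNK-treated A/J lungs of week 6 was among the arrays behind those calls, and the members moved together. The 9 are therefore not separate events, and no chance rate was set against them. The mitotic mean of that array was not flagged: its gap to the nearest array was 0.494 of the range, under the limit of 0.526. Of these 9, 7 lay in array 1 of NNK-treated A/J lungs of week 6: the mean of the S-phase members (9.37, nearest array 9.05), Cdk1 (9.57, nearest 8.82), Anln (9.59, nearest 8.85), Ect2 (9.53, nearest 8.90), Rrm2 (9.48, nearest 8.77), Mcm7 (9.88, nearest 9.50) and Cdc45 (8.93, nearest 8.51). The neutrophil and erythroid marker means were also highest in that array, and their part was not tested. The other 2 were Anln in array 2 of untreated A/J lungs of week 3 (8.76, nearest 8.31), which also had a high mesothelial mean, and Pcna in array 2 of untreated A/J lungs of week 9 (11.38, nearest 11.23).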

How the results depend on the processing

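Counts of members past the threshold are given. On the deposited scale 4 differed between untreated strains and 1 followed a trend in A/J. With the filter at the 50th percentile 3 rose after NNK in A/J, 4 at week 6, and 0 followed a trend in A/J. With array weights the counts were 4 for NNK in A/J, 1 in C3H, 1 for each strain's trend, 11 for A/J week 6 and 1 for C3H week 6. On each strain's own arrays they were 2 for NNK in A/J, 8 in C3H, 1 for the A/J trend and 2 for A/J week 6. Without week 6, planned or with 1 untreated A/J array of week 0 also left out after the data were seen, NNK in A/J had 0 and the strain difference 5. Without the 3 arrays high in markers the counts were 14 for NNK in A/J, 5 in C3H, 8 for the strain difference, 10 and 1 for the A/J and C3H trends, 3 for their difference, 1 for A/J week 6 and 4 for A/J week 9. The causes were not tested, beside fewer arrays or genes in these fits. Leaving out 1 array in turn gave 4 to 32 members for NNK in A/J, 0 to 4 in C3H, 1 to 6 for the strain difference, 1 to 4 for the A/J trend, 0 to 1 for the trend difference, 1 to 35 for A/J week 6 and 0 to 1 for A/J week 9. With the replicate block 7 rose in A/J, 18 at week 6, and 2 followed a trend in A/J; it changed no count by over 1.5 times, nor did a pseudocount of 1, no filter, trended robust variances or the mean of all probe sets. Of 155 values of single members under alternatives other than leaving out 1 array, 110 kept their call, 45 lost it and 0 reversed. Signal over background was not measured; 8 of 46 members were too dim to be tested, and 2 arrays a group limit the precision of the rest.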
